A study of Mus musculus with 6 samples.

Results

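The genes described here encode proteins of the mitochondrial ribosome and of the translocases that carry proteins into mitochondria, measured in mouse forebrain cortex. They were chosen by name: every probe set with a single gene symbol that began with Mrps, Mrpl, Tomm or Timm followed by a digit, with the brightest probe set kept for each gene. The rule gave 101 genes of the 19938 measured. There were 29 with names of small-subunit ribosomal proteins (Mrps), 48 with names of large-subunit proteins (Mrpl), 10 outer membrane translocase genes (Tomm) and 14 inner membrane translocase genes (Timm). Mrpl53 and Timm10b shared their rows with another gene symbol and were not used here. Of the 101 genes, 12 had several probe sets, and in all 12 the probe sets differed between the groups with the same sign. These are not all separate measurements. Timm23 had probe sets with identical values on every array, and those of Tomm20 were nearly equal, so the agreement is no independent support.

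The study compared Dicer KO mice with littermate controls by hybridising cortical RNA of each animal to 1 Affymetrix whole-transcript array. The 3 animals labelled Dicer KO (arrays KO 1, KO 2 and KO 3) had the genotype CamKII-Cre/+;Dicer flox/flox. The 3 controls were littermates that either carried the Cre and 1 intact allele (CamKII-Cre/+;Dicer flox/+) or had no Cre (+/+;Dicer flox/flox). Their labels give both control genotypes without assigning them to animals. All 6 were adult C57BL/6 mice, and the labels give no age in weeks. CamKII-driven Cre acts mainly in excitatory forebrain neurons, so both floxed alleles were targeted in those cells and not in glia or most interneurons, although the arrays measured all cells of the tissue. In such bulk RNA, fewer cells of a type and less RNA per cell cannot be told apart.

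Mitochondria hold their own small genome, and a dedicated ribosome translates its few messages into core subunits of the respiratory chain and ATP synthase. All the proteins of that ribosome, and nearly all other mitochondrial proteins, are encoded in the nucleus, made in the cytosol and imported. Precursors cross the outer membrane through the TOM complex, and then either the TIM23 complex passes them to the matrix and inner membrane or small TIM chaperones carry them to the TIM22 complex. Neurons depend heavily on oxidative phosphorylation, which requires both the imported and the locally translated subunits.

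Several measures of the arrays bear on what follows. Dicer1 read 9.58, 9.68 and 9.46 on the arrays labelled Dicer KO, against 9.17, 9.21 and 9.18 on control arrays, on the log2 intensity scale used throughout. The target of the deletion was therefore not lower in the KO group (difference 0.39 ± 0.087 SE, limma adjusted p = 0.102). Its single probe set has no known relation to the deleted exons, so the genotype of the arrays, and with it the direction of every difference, rests on the labels. The excitatory neuron markers Camk2a and Slc17a7 were bright on every array, at 12.65 to 13.25 and 12.06 to 12.37. Control 1 stood apart in 6 olfactory bulb markers, whose median was 1.26 above the control mean on that array and between -0.56 and -0.29 on the other 5 arrays. By their Y-linked and Xist levels, KO 1, KO 3 and control 2 were male and KO 2, control 1 and control 3 were female, so each group held both sexes.

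The genes of the mitochondrial ribosome and import machinery were mostly lower in cortex labelled Dicer KO than in control cortex, by small amounts. The difference between the group means was below 0 for 84 of the 101 genes (83.2%), against 52.7% of all genes. Their median difference was -0.16 on the log2 scale, with the middle of the list between -0.25 and -0.08, against a median of -0.0092 over all genes. The 17 genes with a difference above 0 reached at most 0.31, and the 84 below 0 reached -0.68. Without control 1, the array with the olfactory bulb signal, 85 were below 0 and the median was -0.17.

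Few of these differences passed a test gene by gene. In a limma fit over all 19938 genes, 3 of the 101 were called lower at a Benjamini-Hochberg adjusted p under 0.05 (2.97%, against 0.191% of all genes), and 0 were called higher (against 0.0903%). At an unadjusted p under 0.05, 25 were lower (24.8%, against 7.39% of all genes) and 3 were higher (2.97%, against 7.01%). In 32 genes every KO array lay below every control array (31.7%, against 11.0% of all genes), and in 2 every KO array lay above (1.98%, against 9.30%). Genes of 1 complex can vary together between animals, so these shares describe the list and carry no p-value of their own. Of the 101 members, 99 were at or above the median level of all rows, where such shares were larger. Among all 11634 genes at that level, 1156 were lower at an unadjusted p under 0.05 (9.94%) and 1167 higher. The groups were apart with KO lower in 13.6% and higher in 12.8%, and 0.301% were called lower and 0.146% higher. Comparisons with all genes, here and below, thus widen the excess of lower members. The 3 calls were lost without KO 1, KO 2 or any 1 of the controls, when limma called 0 of all genes. In those fits 20 to 24 members were lower at an unadjusted p under 0.05 (19.8% to 23.8%, against 5.21% to 6.82% of all genes). Without KO 3 the members called lower numbered 5, the 3 among them, against 74 of all 19938 genes called lower. With the sex of the animals as a covariate, limma called 0 members and 0 of all genes, and 82 members were below 0. At an unadjusted p under 0.05, 23 members were lower (22.8%, against 5.65% of all genes). The 3 differences themselves were as large in that fit, -0.70 for Tomm40l, -0.58 for Mrps36 and -0.55 for Mrps18a.

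**Figure D1:**
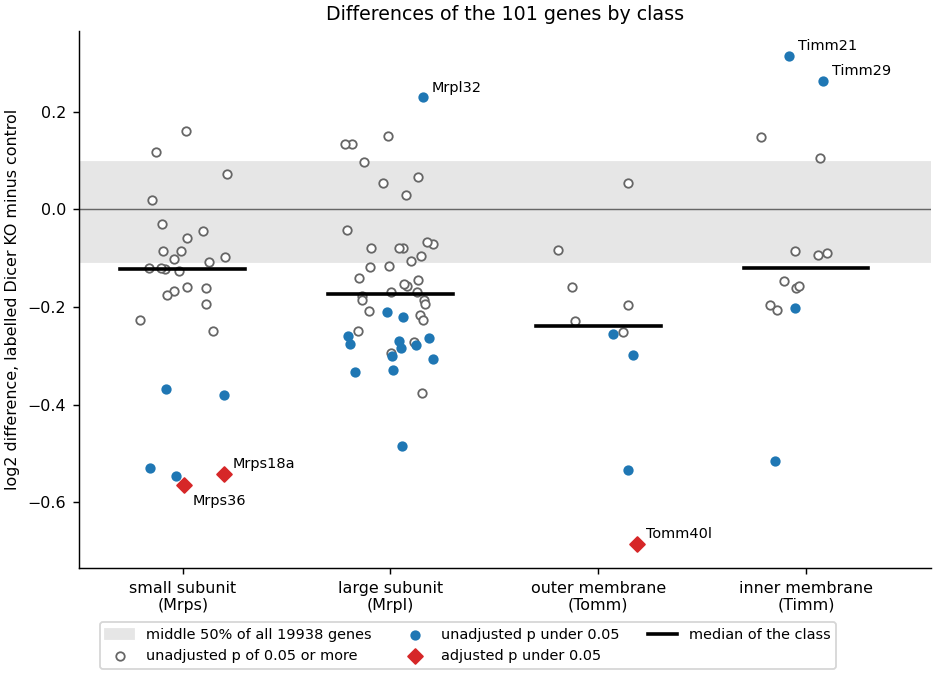
Difference in log2 intensity (vertical axis), the mean of 3 arrays labelled Dicer KO minus that of 3 control arrays, for each of the 101 genes (points) in 4 classes, with the class median as a bar and the interquartile range of all genes as a grey band; diamonds passed an adjusted p of 0.05 and filled circles an unadjusted p of 0.05. Most points lie below 0 in each class, and the class medians run from -0.24 in the outer membrane translocase genes to -0.12 in the inner membrane translocase genes.

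The 3 genes called lower were Tomm40l, Mrps36 and Mrps18a. Tomm40l, a paralog of the TOM pore gene Tomm40, read 8.58, 8.55 and 8.70 on the KO arrays and 9.21, 9.30 and 9.38 on the control arrays. All 3 KO values lay below the lowest control value by more than the spread within either group. Its means were 8.61 ± 0.076 in KO and 9.29 ± 0.086 in controls (SD, n = 3 each), and it fell by 0.68 ± 0.088 SE, or 1.61-fold (limma adjusted p = 0.0335).

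Mrps36 read 7.51, 7.50 and 7.54 on the KO arrays and 8.11, 8.14 and 7.99 on the control arrays. The KO values were nearly equal, and the groups did not overlap. It fell by 0.56 ± 0.083 SE, or 1.48-fold (limma adjusted p = 0.0413), and its second probe set differed by -0.55. Despite its name, the Mrps36 protein is known as a component of the 2-oxoglutarate dehydrogenase complex of the citric acid cycle and not of the mammalian mitochondrial ribosome. Mrps18a is one of 3 mitochondrial homologs of bacterial protein S18, and its product sits in the large subunit in mammals. It read 8.84, 8.86 and 9.00 on the KO arrays and 9.44, 9.42 and 9.47 on the control arrays, again with no overlap. It fell by 0.54 ± 0.083 SE, or 1.46-fold (limma adjusted p = 0.0480). After a second quantile normalization its adjusted p in limma was 0.052, which ends the call.

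The promoters of both genes differ in the short motifs that many mitochondrial genes carry. Below are the 120 bases before the annotated start of each, from the RefSeq promoter table on GRCm38.p6, read 5′ to 3′ on the gene's strand. Capitals mark a match to CCGGAAG, the core that ETS factors such as GABP bind. The Mrps36 stretch lies on the minus strand at chr13:100744660-100744779 and the Mrps18a stretch on the plus strand at chr17:46110884-46111003.
Mrps36: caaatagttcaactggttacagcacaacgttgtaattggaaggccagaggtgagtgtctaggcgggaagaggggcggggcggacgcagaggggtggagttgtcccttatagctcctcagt
Mrps18a: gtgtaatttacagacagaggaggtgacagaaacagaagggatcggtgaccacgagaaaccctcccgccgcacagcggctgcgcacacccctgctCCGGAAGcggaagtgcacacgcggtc
Mrps36 had no match to the ETS, NRF1 or YY1 motif searched in its 300-base window. Mrps18a had an ETS match 26 bases before the start, and a YY1 match 11 bases after it that lies outside the stretch shown. Tomm40l has no promoter in that table and is named only.

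**Figure D2:**
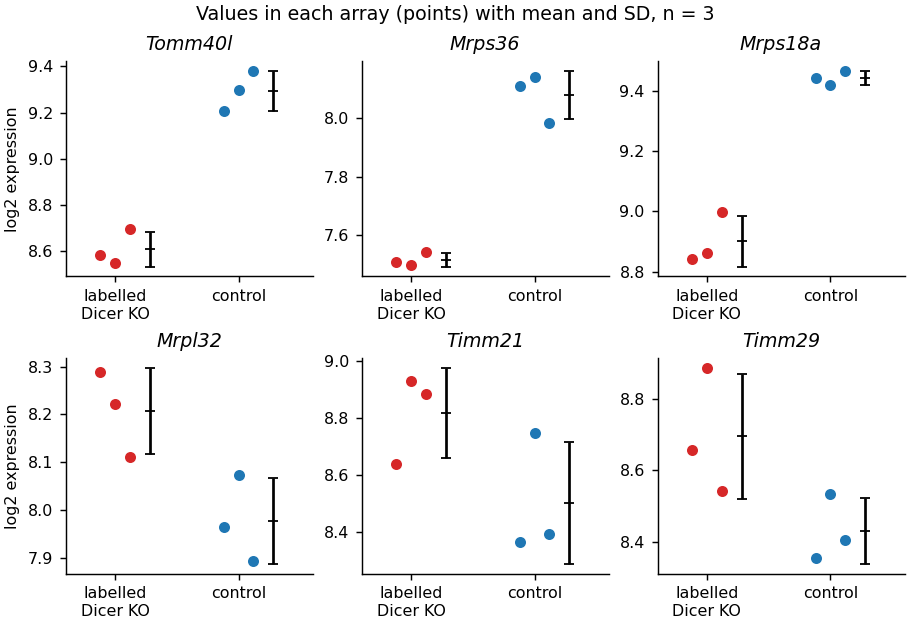
Log2 intensity (vertical axes, each with its own range) of the 3 genes called lower (top) and of Mrpl32, Timm21 and Timm29 (bottom) on 3 arrays labelled Dicer KO (left in each panel) and 3 control arrays (right), with points for arrays and black marks for group means and SDs (n = 3 each). The KO points of Tomm40l, Mrps36 and Mrps18a lie below all their control points, while those of Mrpl32 and Timm29 lie above theirs and those of Timm21 overlap.

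Small-subunit genes were mostly lower, with 25 of 29 below 0 and a median of -0.12. The median was -0.17 without KO 3. At an unadjusted p under 0.05, 6 were lower (20.7%, against 7.39% of all genes) and 0 higher (against 7.01%). In 10, every KO array lay below every control array (34.5%, against 11.0%). Besides the calls on Mrps36 and Mrps18a, the smallest adjusted p-values were those of Mrps25, Mrps14, Mrps12 and Mrps21. Mrps25 read 7.53, 7.50 and 7.83 in KO and 8.15, 8.05 and 8.25 in controls, a difference of -0.53 ± 0.11 SE (limma adjusted p = 0.0878). This gene did not pass the threshold, although all 3 KO values lay below the control values. Without KO 3 it did (limma adjusted p = 0.0405), in a fit that called 129 of all genes against 56 with all arrays. Without any 1 of the other arrays its adjusted p in limma was 0.198 to 0.254.

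Mrps14, a homolog of bacterial S14, differed by -0.38 ± 0.081 SE, with 8.56, 8.55 and 8.67 in KO and 8.99, 8.96 and 8.98 in controls (limma adjusted p = 0.0888). Mrps12, whose bacterial homolog S12 lies at the decoding centre, differed by -0.37 ± 0.081 SE, with 8.12, 8.07 and 8.20 in KO and 8.47, 8.49 and 8.54 in controls (limma adjusted p = 0.0956). Both had tight control values and no overlap. Mrps21 differed by as much as the called genes, at -0.55, but its arrays spread more: 9.40, 9.24 and 8.98 in KO against 9.86, 9.88 and 9.52 in controls (SE 0.14, limma adjusted p = 0.130).

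The 4 small-subunit names above 0 were Mrps31 (0.16, limma adjusted p = 0.494), Mrps18c (0.12, 0.646), Mrps23 (0.07, 0.756) and Mrps18b (0.018, 0.954). The 3 S18 homologs therefore did not move alike: Mrps18a was called lower, while Mrps18b and Mrps18c lay on the other side of 0 with overlapping groups. The difference among the 3 was not tested. Mrps22 (-0.058 ± 0.15 SE) and Mrps16 (-0.098 ± 0.12 SE), both of which cause human mitochondrial disease when mutated, also had overlapping groups. Mrps30 sits in the large subunit as Mrps18a does. Without Mrps18a, Mrps30 and Mrps36, a set made after the values were seen, 22 of 26 small-subunit genes were below 0, with a median of -0.12 and 0 called. At an unadjusted p under 0.05, 4 of them were lower (15.4%, against 7.39% of all genes) and 0 higher.

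Large-subunit genes had a median difference of -0.17, and 40 of 48 were below 0. None was called in either direction by limma, while 13 were lower (27.1%, against 7.39% of all genes) and 1 was higher (2.08%, against 7.01%) at an unadjusted p under 0.05. In 16 genes all KO values lay below all control values (33.3%, against 11.0%). Mrpl46 had the smallest adjusted p, with 8.46, 8.43 and 8.42 in KO and 8.68, 8.72 and 8.83 in controls (-0.31 ± 0.083 SE, limma adjusted p = 0.148). Mrpl34, homologous to bacterial L34, read 7.82, 7.76 and 7.94 in KO and 8.23, 8.06 and 8.13 in controls (-0.30 ± 0.091 SE, limma adjusted p = 0.191). In both, every KO array lay below every control array.

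The widest difference of the class was that of Mrpl36, the homolog of bacterial L36, at -0.48 ± 0.15 SE, with 8.55, 8.32 and 8.86 in KO and 8.91, 9.00 and 9.27 in controls (limma adjusted p = 0.196). Mrpl57 differed by -0.33 (limma adjusted p = 0.193), Mrpl18 by -0.28 (0.200) and Mrpl33 by -0.28 (0.205). Mrpl58, a peptidyl-tRNA hydrolase that rescues stalled ribosomes and is built into the large subunit, differed by -0.26 (limma adjusted p = 0.210). Mrpl12, which also binds the mitochondrial RNA polymerase, read 8.52, 8.45 and 8.45 in KO and 8.82, 8.69 and 8.69 in controls (-0.26 ± 0.083 SE, limma adjusted p = 0.210). In all 5 every KO array was below every control array. Mrpl3 read 9.64, 9.75 and 9.86 in KO and 9.97, 9.98 and 9.96 in controls, with nearly equal controls and more spread among the KO arrays (-0.22 ± 0.087 SE, limma adjusted p = 0.294).

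Mrpl32, a protein that must be cleaved by the m-AAA protease before the large subunit can be assembled, ran the other way. It read 8.29, 8.22 and 8.11 in KO and 7.97, 8.07 and 7.89 in controls, with no overlap (0.23 ± 0.091 SE, limma adjusted p = 0.294). Mrpl41 (0.15), Mrpl39 (0.13) and Mrpl1 (0.13) were also above 0, each with overlapping groups. The remaining 4 of the 8 large-subunit genes above 0 lay between 0.03 and 0.10.

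The outer membrane genes had a median of -0.24, with 9 of 10 below 0, and 4 were lower at an unadjusted p under 0.05 (40.0%, against 7.39% of all genes). They were Tomm40l, Tomm34, Tomm40 and Tomm5. In these 4 alone of the class every KO array lay below every control array (40.0%, against 11.0% of all genes). Tomm34, a cytosolic co-chaperone that holds precursors before import and is not part of the TOM complex, read 9.68, 9.67 and 9.97 in KO and 10.16, 10.31 and 10.45 in controls (-0.53 ± 0.12 SE, limma adjusted p = 0.0904). It passed the threshold without KO 3 (limma adjusted p = 0.0488). Without any 1 of the other arrays its adjusted p in limma was 0.184 to 0.261. Tomm40, the pore itself, read 9.35, 9.24 and 9.12 in KO and 9.57, 9.57 and 9.47 in controls (-0.30 ± 0.091 SE, limma adjusted p = 0.193). Tomm5, a small subunit attached to the pore, read 8.11, 7.84 and 8.10 in KO and 8.36, 8.19 and 8.28 in controls (-0.25 ± 0.10 SE, limma adjusted p = 0.304).

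The other small pore subunits had like differences with overlapping groups, Tomm7 at -0.25 (limma adjusted p = 0.449) and Tomm6 at -0.23 (0.378). Of the receptors that recognise precursors, Tomm22 differed by -0.20 ± 0.12 SE, Tomm70a by -0.082 ± 0.12 SE and Tomm20 by 0.054 ± 0.15 SE, with limma adjusted p-values of 0.529, 0.808 and 0.912. Tomm20l was dim, between 6.30 and 6.69 on all arrays. Its difference was -0.16.

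Of the inner membrane genes, 10 of 14 were below 0, with a median of -0.12. At an unadjusted p under 0.05, 2 were lower and 2 higher (14.3% each way, against 7.39% and 7.01% of all genes). Without KO 3 the median was -0.062. The largest difference was in Timm8a1, an X-linked small TIM chaperone that works with Timm13 and whose human counterpart is mutated in deafness-dystonia syndrome. It read 7.33, 7.25 and 7.35 in KO and 7.60, 7.96 and 7.92 in controls (-0.51 ± 0.11 SE, limma adjusted p = 0.0888), and its second probe set differed by -0.48. The groups did not overlap, though control 1 lay closer to the KO arrays than the other controls did. Timm10, another small TIM chaperone, read 8.45, 8.34 and 8.35 in KO and 8.60, 8.56 and 8.58 in controls (-0.20 ± 0.080 SE, limma adjusted p = 0.294). Their partners Timm13 (-0.16 ± 0.099 SE) and Timm9 (0.11 ± 0.21 SE) had overlapping groups.

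The 2 higher genes were Timm21 and Timm29. Timm21, a TIM23 subunit that also takes part in respiratory chain assembly, read 8.64, 8.93 and 8.88 in KO and 8.36, 8.75 and 8.40 in controls, with control 2 above KO 1 (0.31 ± 0.13 SE, limma adjusted p = 0.307). Timm29, a subunit of the TIM22 complex, read 8.66, 8.89 and 8.54 in KO and 8.35, 8.53 and 8.41 in controls, and the groups were apart only by the small step between KO 3 and control 2 (0.26 ± 0.11 SE, limma adjusted p = 0.315). Neither passed the threshold.

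The channel and motor subunits had overlapping groups. Timm23, the channel-forming subunit, read 10.58, 10.86 and 10.02 in KO and 10.74, 10.80 and 10.51 in controls, and its difference of -0.20 ± 0.19 SE was 0.037 without KO 3. Its partners Timm17a (-0.21 ± 0.11 SE) and Timm17b (-0.085 ± 0.11 SE), the receptor Timm50 (-0.15 ± 0.10 SE), the motor anchor Timm44 (-0.090 ± 0.13 SE) and the carrier translocase Timm22 (-0.093 ± 0.12 SE) had limma adjusted p-values between 0.429 and 0.802. Timm8a2 was dim, between 4.58 and 4.94 on all arrays, with a difference of 0.15.

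All 3 KO arrays carried the lower level of the list. Relative to each gene's control mean, the median of the 101 genes was -0.14, -0.18 and -0.12 on KO 1, KO 2 and KO 3, and -0.033, -0.021 and 0.053 on the 3 control arrays. Over all genes the medians were -0.014, -0.014 and 0.0013 on the KO arrays, and -0.017, -0.017 and 0.037 on the control arrays. The KO arrays were thus apart from the controls in the list and not over all genes. In 56 of the 101 genes (55.4%) all 3 KO arrays were below the control mean, against 26.3% of all genes, and in 8 (7.92%) all 3 were above, against 22.8%.

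The classes differed in which KO array was lowest. Outer membrane genes had medians of -0.15, -0.26 and -0.32 on KO 1, KO 2 and KO 3. Inner membrane genes had medians of -0.13, -0.026 and -0.0081 on those arrays, against values between -0.012 and 0.0041 on the controls. The list was not dim: 99 of the 101 genes were at or above the median level of all rows, and among all 11634 genes at that level the median difference was 0.00057.

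**Figure D3:**
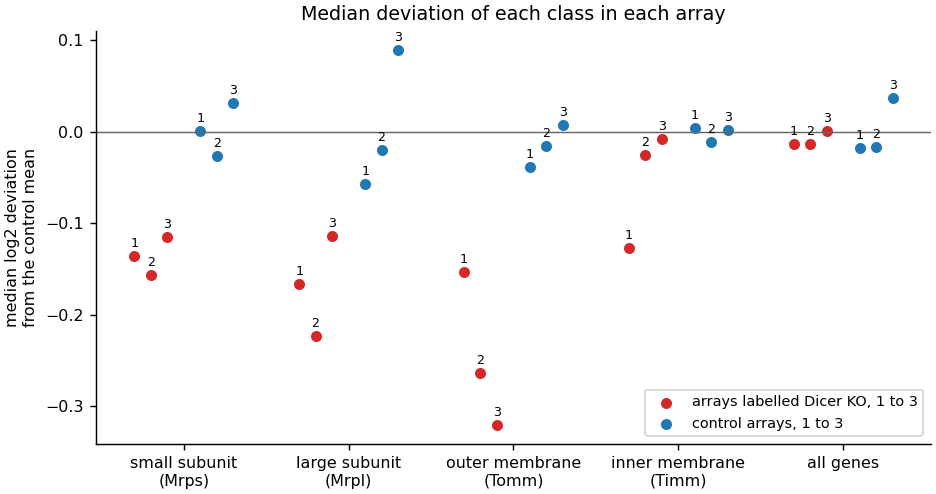
Median over the genes of each class of the log2 intensity minus the control mean (vertical axis), and of all genes, for each array labelled Dicer KO (left) and each control array (right); points are arrays, numbered 1 to 3. The KO medians of the ribosomal and outer membrane classes lie between -0.32 and -0.11, below the controls, while 2 of the 3 KO medians of the inner membrane class are close to 0.

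Other genes of mitochondrial translation and import were examined as lists. Of 26 translation and ribosome assembly factors, 19 were below 0, with a median of -0.06. At an unadjusted p under 0.05, 4 were lower (15.4%, against 7.39% of all genes) and 0 higher, and limma called 0. Mrrf, which recycles ribosomes after termination, read 7.91, 7.80 and 8.22 in KO and 8.43, 8.31 and 8.48 in controls (-0.43 ± 0.12 SE, limma adjusted p = 0.157). Tufm, the elongation factor that brings aminoacyl-tRNA to the ribosome, differed by -0.46 ± 0.18 SE (limma adjusted p = 0.289). Among 4 other ribosomal proteins without an Mrp name the median was -0.015, with 0 called and 0 at an unadjusted p under 0.05.

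Of 23 other import and processing genes, 18 were below 0 (78.3%, against 52.7% of all genes), with a median of -0.12, and limma called 0. At an unadjusted p under 0.05, 5 were lower (21.7%, against 7.39% of all genes), and 2 were higher (8.70%, a share near the 7.01% of all genes). Timmdc1 was named for similarity to translocases but is an assembly factor of respiratory complex I. It read 8.27, 8.26 and 8.61 in KO and 8.86, 8.87 and 9.12 in controls (-0.57 ± 0.12 SE, limma adjusted p = 0.0888). Without KO 3 its adjusted p in limma was 0.0412, and without any 1 of the other arrays limma called 0 of all genes. Dnlz, which assists the matrix chaperone mortalin, differed by -0.44 ± 0.099 SE (limma adjusted p = 0.105), and Dnajc15, a co-chaperone of the import motor, by -0.49 ± 0.12 SE (0.127). Grpel2, a nucleotide exchange factor for the same chaperone, was at 0.26 ± 0.090 SE (limma adjusted p = 0.239).

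Regulators of mitochondrial biogenesis and mitochondrial DNA expression had a median on the other side of 0, 0.055, with 5 of 14 below 0 and 0 called. At an unadjusted p under 0.05, 1 was lower and 1 higher (7.14% each way), which is the share among all genes (7.39% and 7.01%). They were Esrra, an orphan nuclear receptor that induces respiratory genes (-0.24 ± 0.090 SE, limma adjusted p = 0.272), and Myc (0.22 ± 0.081 SE, 0.265). In 3 of the 14 every KO array lay above every control array (21.4%, against 9.30% of all genes): Myc, Nrf1 and Gabpb1. In 2, Esrra and Tfb2m, every KO array lay below every control array (14.3%, against 11.0% of all genes). The array medians of the list were -0.046, 0.032 and 0.096 on KO 1, KO 2 and KO 3, and -0.035, 0.035 and 0.0078 on the controls. Nrf1, whose product binds many promoters of nuclear-encoded mitochondrial genes, was at 0.20 (limma adjusted p = 0.445). Gabpb1, which encodes the partner subunit of Gabpa in GABP, had the largest difference of the list, 0.25 ± 0.13 SE (limma adjusted p = 0.420), and the coactivator Ppargc1a was at 0.14 (0.577). Gabpa (0.086), Yy1 (0.10) and Tfam (0.023) had overlapping groups.

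Markers of cell types moved between the arrays too, and their part in the lower level of the mitochondrial genes was not tested. Of 9 excitatory neuron markers, 7 were below 0 with a median of -0.13, 3 were lower at an unadjusted p under 0.05 (33.3%, against 7.39% of all genes), and 1 was called lower. That was Nrgn, a postsynaptic calmodulin-binding protein (-0.60, limma adjusted p = 0.0413). Their array medians were -0.087, 0.0035 and -0.18 on KO 1, KO 2 and KO 3, against -0.073, 0.048 and 0.014 on the controls. Of 8 GABAergic interneuron markers 3 were below 0, with a median of 0.080. At an unadjusted p under 0.05, 1 was lower and 1 higher (12.5% each way, against 7.39% and 7.01% of all genes). Array medians of that list were 0.068, 0.0084 and 0.16 on the KO arrays and 0.094, -0.067 and 0.0033 on the controls. Of 5 endothelial markers 3 were below 0, with a median of -0.016. Of 8 astrocyte markers 2 were below 0, with array medians of 0.060, 0.042 and 0.38 on the KO arrays and -0.065, 0.021 and 0.080 on the controls. Of those 8, 3 were higher at an unadjusted p under 0.05 (37.5%, against 7.01% of all genes). In the same 3 every KO array lay above every control array (37.5%, against 9.30%). Among them Gfap stood at 1.07 ± 0.33 SE (limma adjusted p = 0.196). Microglia markers had medians of -0.17, -0.35 and 0.30 on the KO arrays and -0.18, -0.051 and 0.22 on the controls. Oligodendrocyte markers had medians of 0.16, -0.13 and 0.40 on the KO arrays and -0.18, -0.19 and 0.40 on the controls, so both glial lists were highest on KO 3 and control 3. Of 6 meningeal and fibroblast markers 0 were below 0, with a median of 0.22, and 3 of the 6 were higher at an unadjusted p under 0.05 (against 7.01% of all genes). Their array medians were 0.39, -0.057 and 0.30 on the KO arrays and -0.042, 0.011 and 0.038 on the controls. The 6 choroid plexus markers had a median of -0.0081, but Ttr, a major secreted protein of that tissue, read 9.85, 10.95 and 8.30 in KO and 8.73, 8.34 and 8.18 in controls (1.28 ± 0.53 SE, limma adjusted p = 0.319).

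Promoter motifs were searched as a description of what the genes share. The motifs are known from mitochondrial genes and were looked for on both strands of windows from 250 bases before to 50 after the start: GCGCATGC for NRF1, CCGGAAG for ETS factors and AAGATGGCG for YY1. RefSeq windows were found for 89 of the 101 genes, 97 windows in all. The ETS motif was in 35.1% of these windows, against 12.1% of windows of the genes measured and 8.86% of all promoters. The NRF1 motif was in 9.28%, against 3.79% and 2.71%, and the YY1 motif was also in 9.28%, against 1.94% and 1.40%. By class, the NRF1 motif was in 14.9% of large-subunit windows, 7.14% of inner membrane, 3.70% of small-subunit and 0.00% of outer membrane windows.

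Genes with and without an ETS or YY1 match had close medians. The 33 genes with an ETS match had a median of -0.18, and the 56 without one -0.16. For YY1 the medians were -0.17 in 9 genes with a match and -0.16 in 80 without. For NRF1 they were 0.018 in 9 genes with a match and -0.16 in 80 without, and 4 of the 9 were below 0, against 69 of the 80. These splits were chosen with the members' values known and were not tested. The 9 NRF1 genes ran from Mrpl33 (-0.28), Mrpl10 (-0.21), Timm13 (-0.16) and Mrpl9 (-0.079) below 0 to Mrps18b (0.018), Mrpl17 (0.053), Mrpl22 (0.097), Mrpl39 (0.13) and Mrpl32 (0.23) above it.

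The upstream stretches of Mrpl33 and Mrpl32, the lowest and the highest of the 9, are printed with that of Mrpl34, which holds an ETS match and no NRF1 match. Each is the 120 bases before the start on GRCm38.p6 from RefSeq, read 5′ to 3′ on the gene's strand, with NRF1 matches in capitals in the first pair and the ETS match in capitals in the last. They lie at chr5:31613831-31613950 on the plus strand (Mrpl33), chr13:14613038-14613157 on the minus strand (Mrpl32) and chr8:71464806-71464925 on the plus strand (Mrpl34).
Mrpl33: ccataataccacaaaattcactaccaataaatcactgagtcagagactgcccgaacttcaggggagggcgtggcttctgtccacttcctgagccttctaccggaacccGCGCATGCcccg
Mrpl32: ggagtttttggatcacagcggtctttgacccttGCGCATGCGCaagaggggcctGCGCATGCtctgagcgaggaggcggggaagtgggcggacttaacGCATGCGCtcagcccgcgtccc
Mrpl34: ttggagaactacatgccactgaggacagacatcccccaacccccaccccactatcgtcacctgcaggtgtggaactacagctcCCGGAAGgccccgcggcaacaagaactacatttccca
Mrpl33 has 1 NRF1 match, 12 bases before the start, and an ETS match that runs over the start and is left in lower case. Mrpl32 has 4 NRF1 matches, 87, 85, 66 and 22 bases before the start, of which those at 85 and 22 are on the opposite strand and the pair at 87 and 85 overlap. A match gives letters in the window and no evidence of binding in these animals.

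**Figure D4:**
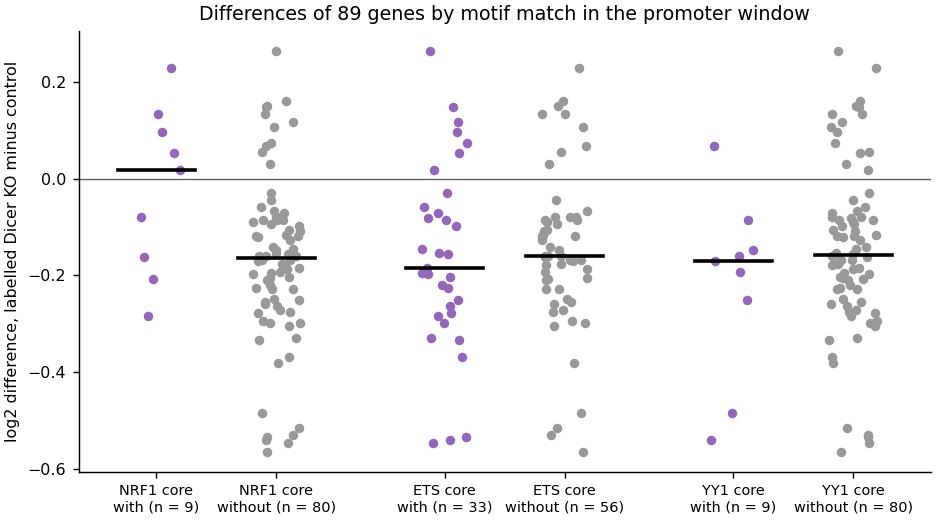
Log2 difference (vertical axis), labelled Dicer KO minus control, of the 89 genes with a RefSeq promoter window, split for each of 3 motifs into genes with a match (left of each pair) and without (right); points are genes and bars medians. Only the 9 genes with an NRF1 match have a median above 0, at 0.018.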

How the data were processed

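Per the labels' protocols, each animal gave 200 ng of total RNA for 1 whole-transcript array. The values are log2 intensities, 1 per probe set and array, as deposited by the authors; the submitters' processing notes name RMA and limma without versions. RMA brings arrays to a common distribution, so a shift shared by most genes would not show. How probe sets were defined, and the genome build, are not stated in those notes. No counts lie behind the values, and 3 arrays per group limit the precision.

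Of 35557 rows, the platform annotation gave 21789 a single symbol, 1621 several and 12147 none. The probe set with the highest mean was kept for each of 19938 genes. Differences, KO minus control, came from a moderated linear model (limma 3.58.1 under R 4.3.3) and two-sided p-values, adjusted over all genes by Benjamini-Hochberg, with a threshold of 0.05. Each array is a separate animal by its label. The error behind each p-value and each SE is moderated: it joins the variation among those animals with a variance estimated over all genes. The weight of the latter was 4.892 prior degrees of freedom, so an SE can differ from what the printed SDs alone would give. In data simulated for this comparison over 19938 genes, the fit recovered 34.2% of differences of 0.5 and 84.4% of differences of 1 on the log2 scale, and 3.89% of calls were false. Each gene was drawn independently from a normal distribution with its own mean and spread. The simulation held no variation shared between genes, no sex effect and no stray tissue signal, so its rates need not hold for these arrays.

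Named genes were the 4 of smallest p in each direction per class, all calls, a fixed list of well-known members and the leading genes of the pathway lists; others are named to complete a group. The members, lists and motifs were chosen with earlier results of these data known. Promoter windows came from RefSeq, GRCm38.p6. Alternatives were a replicate block, each array left out, median centring, a second quantile normalization, a filter on dim genes, averaged probe sets, array weights, a trended and robust prior, sex as a covariate, an unmoderated test and an adjusted p under 0.1.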

Additional observations from a re-analysis of the deposited data

How the results depend on the processing

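Over 47 named genes and all alternatives, 646 values kept their direction and their side of the threshold. In the same direction, 19 passed the threshold only under the alternative and 22 no longer passed it, and 16 changed sign, in 9 genes. Leaving out 1 array at a time, 70 of the 84 members below 0 and 13 of the 17 above 0 kept their sign throughout, as did all 25 and all 3 of those at an unadjusted p under 0.05. The median over the 101 genes stayed between -0.18 and -0.12 in those fits.

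The number of members called lower, 3 in the fit reported, was the least stable value. It was 8 at an adjusted p under 0.1, a threshold for which no count over all genes is given here. With array weights it was 14 of 101, against 618 of all 19938 genes called lower. After a second quantile normalization it was 2 (without Mrps18a), against 38 of all genes. With 1 array left out it was 0 to 5, against 0 to 74 of all genes. It was 0 in an unmoderated test and 0 with sex as a covariate. In those fits 25 and 23 members were lower at an unadjusted p under 0.05 (24.8% and 22.8%, against 6.65% and 5.65% of all genes). Members called higher stayed at 0 in every limma fit, with 0 to 4 higher at an unadjusted p under 0.05. Members lower at an unadjusted p under 0.05 numbered 39 with array weights (38.6%, against 12.7% of all genes). With 1 array left out they numbered 20 to 34 (19.8% to 33.7%, against 5.21% to 8.68% of all genes). Those higher numbered 1 in the unmoderated test, 1 with sex as a covariate and 0 to 4 with 1 array left out. The shares of all genes higher in those fits were 5.40%, 5.85% and 4.59% to 8.24%. Array weights gave KO 1 a weight of 5.18 and the other arrays 0.43 to 1.20. Over all genes, calls numbered 56 in the fit reported, 1116 with array weights, 167 without dim genes, 129 without KO 3, 84 with the trended and robust prior and 0 without any other single array, in the unmoderated test or with sex as a covariate. The cause of these changes was not tested.

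With the replicate number of the labels as a replicate block, 6 of the 101 members were called lower, against 109 of all 19938 genes. Calls in both directions numbered 215 over all genes. Same-numbered arrays deviated together with correlations of 0.089, 0.17 and 0.29, and each KO array was closest to the control of its number. Control 1 was slightly closer to KO 2 (0.094) than to KO 1. The arrays of unlike number had correlations from -0.23 to 0.094. Whether the numbers mark pairs cannot be told from these values, and the fit reported does not use them.

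The order of the class medians was not stable: the outer membrane median, lowest in the fit reported, was -0.1966 without KO 3 and -0.1995 without control 1, against -0.2143 and -0.2009 for the large subunit. Class medians moved to -0.16 for outer membrane genes with array weights, and ranged with 1 array left out from -0.17 to -0.11 for small-subunit genes and from -0.15 to -0.062 for inner membrane genes. With 1 array left out the differences ranged from -0.041 to 0.056 for Mrps18b, -0.048 to 0.25 for Tomm20, -0.068 to 0.33 for Timm9, -0.20 to 0.027 for Mrps16 and -0.22 to 0.067 for Mrps22. They ranged from -0.14 to 0.016 for Tomm70a, -0.16 to 0.017 for Timm22, -0.38 to 0.037 for Timm23 and -0.21 to 0.014 for Timm44. Mrps18b was at -0.021 with array weights and Mrps22 at 0.026 with sex as a covariate.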
